A study of Mus musculus with 12 samples.

Results

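Zic and Sall genes encode zinc finger transcription factors of the early embryo. Their transcripts were followed here as J1 mouse embryonic stem (ES) cells formed embryoid bodies, the floating aggregates in which such cells start to differentiate. The members were 6 genes of the 18193 with a probe set of their own: Zic1, Zic2, Zic5, Sall1, Sall2 and Sall4. Every probe set annotated to exactly 1 of them was taken, which gave 11 of the 45137 probe sets on the arrays, 6 for the Zic genes and 5 for the Sall genes. The rule itself is by gene name, and the genes were proposed with earlier results of these data known.

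Proteins of the Zic family bind DNA through zinc fingers related to those of the Gli factors of Hedgehog signalling. In vertebrate embryos they are known for their part in the neural plate, its border and the midline of the forebrain. Sall proteins are the vertebrate relatives of Drosophila spalt and act largely as repressors, recruiting the NuRD chromatin remodelling and deacetylase complex. In mouse ES cells, Sall4 acts with Pou5f1, Nanog and Sox2.

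The study held 6 samples on 12 arrays, since each sample went onto both chips of the Affymetrix mouse 430 set (MOE430A, called chip A, and MOE430B, called chip B). Replicates J1-U1 to J1-U3 were J1 ES cells kept 2 days on 0.1% gelatin in D-MEM with leukemia inhibitory factor, beta-mercaptoethanol, sodium pyruvate, antibiotics, 10% fetal bovine serum, non-essential amino acids and glutamax. Replicates J1-D1 to J1-D3 were embryoid bodies of the same line after 5 days in bacterial Petri dishes, in D-MEM with the same serum share, glutamax, non-essential amino acids and antibiotics. Those dishes held no sodium pyruvate, no beta-mercaptoethanol and no leukemia inhibitory factor. The labels name no genetic change in either group, and they put the ES samples at 95% purity by eye, with DR4 feeder cells as the contaminant. All values come from 1 cell line. Nothing in the labels gives separate cultures for the replicates. P-values and intervals therefore measure only how these samples vary, and that variation may be technical.

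Signals below are the deposited intensities on a linear scale. A log2 change is embryoid bodies minus ES cells after a pseudocount was added to each signal, 136 on chip A and 253 on chip B, which shrinks the changes of dim probe sets. The words rose and fell are kept for probe sets whose limma adjusted p, over all probe sets of the chip, was under 0.05. The 3 arrays per group and chip limit the precision of each value. Scan days and chip lots did not overlap between the groups on either chip, so they and the culture state cannot be told apart. In whole cultures, more cells with a transcript and more transcript per cell cannot be told apart either. Each probe set binds its target with its own strength, so signal does not rank transcripts by abundance. The word brightest, and sums over a list, refer to array signal only.

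Zic1 and Sall2 rose in embryoid bodies on chip A, while the remaining 9 probe sets did not pass the test. Of the 8 member probe sets on chip A, 2 rose and 0 fell, where 3.39% of all probe sets of the chip rose and 2.91% fell (6.3% together). The same 2 had an unadjusted limma p under 0.05, as 22% of the chip did. Of the 3 on chip B, 0 passed, where 5.77% rose and 4.91% fell (10.7% together), and 1 of these 3 had an unadjusted limma p under 0.05, as 28.1% of the chip did. All embryoid body (EB) arrays lay above all ES arrays for 3 member probe sets on chip A and 1 on chip B, beside 13.1% and 17.3% of all probe sets. They lay below for 0, beside 14% and 16.2%. With so few probe sets, the counts describe the members and are no test of the families. The median log2 change was 0.21 over the 11 member probe sets and -0.03 over all probe sets of both chips.

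**Figure D1:**
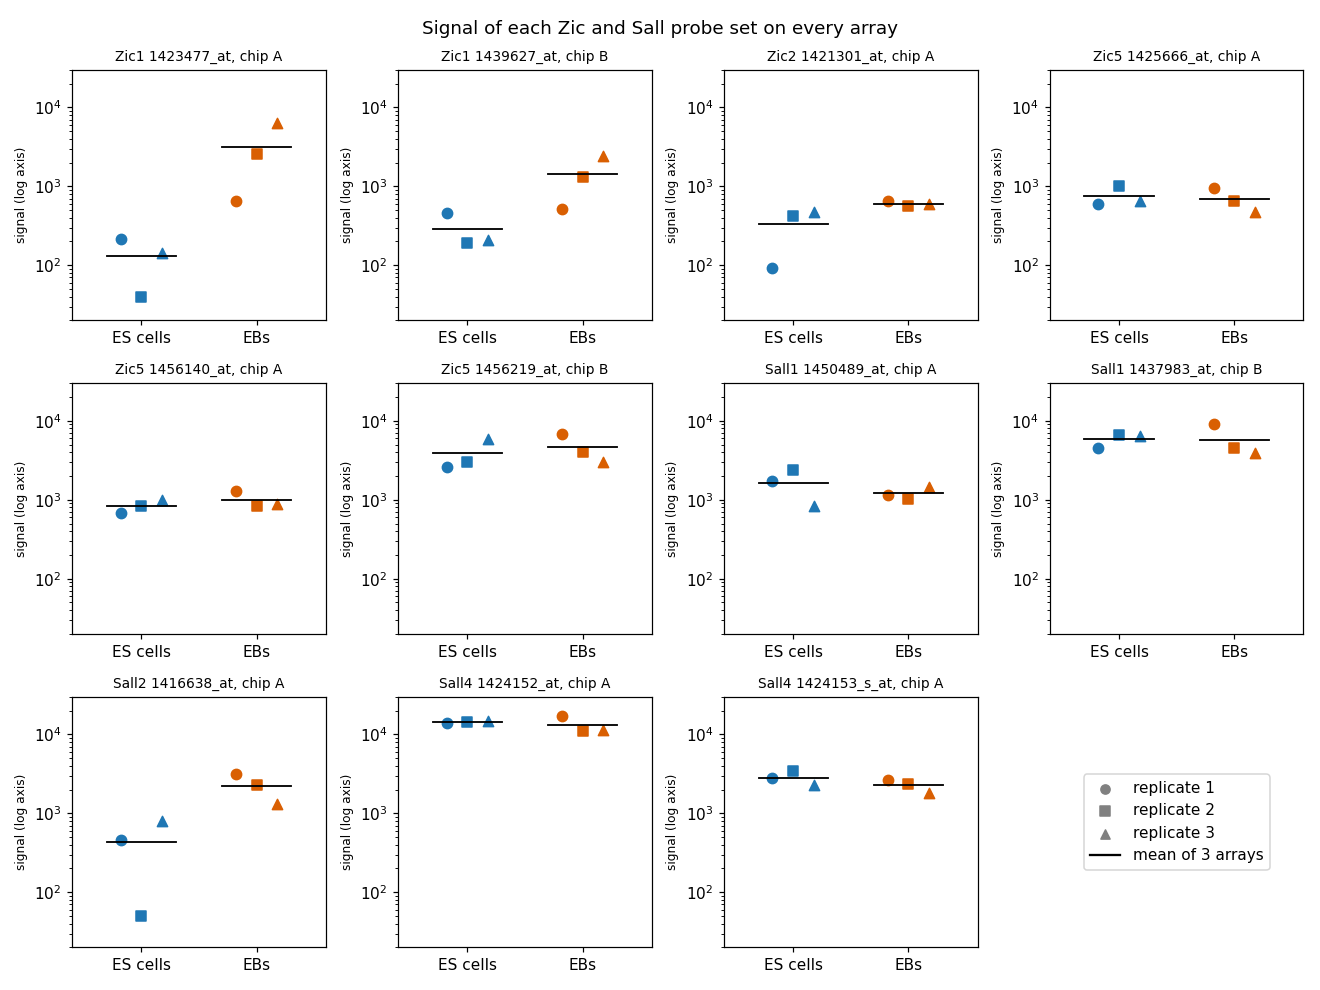
Signal of the 11 probe sets on every array (log axis), in ES cells and embryoid bodies (EBs), with markers for replicates and a line at the mean of 3 arrays. The EB arrays lie above all ES arrays for both Zic1 probe sets, Zic2 and Sall2, and overlap with them in the other 7 panels.

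The gene starts of both genes that rose are shown first, as the stretches of DNA next to the transcripts that changed. RefSeq windows on build GRCm38.p6 were at hand for 4 of the 6 members, each reaching from 250 bases before an annotated start to 50 bases from it onward. Zic1 has 1 window, chr9:91365719-91366018, and Sall2 has 2, chr14:52328621-52328920 and chr14:52316274-52316573, all read from the minus strand. Capitals mark the GC box GGGCGG, which is bound by Sp and Klf factors, and the TATA box TATAAA, each read on both strands.
Zic1: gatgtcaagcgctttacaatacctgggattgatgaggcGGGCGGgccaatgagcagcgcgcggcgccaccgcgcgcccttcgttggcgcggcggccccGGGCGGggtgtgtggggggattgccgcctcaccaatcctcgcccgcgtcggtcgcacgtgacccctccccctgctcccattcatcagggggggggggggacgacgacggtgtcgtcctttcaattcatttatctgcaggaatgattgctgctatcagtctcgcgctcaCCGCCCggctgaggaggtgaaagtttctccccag
Sall2, upstream start: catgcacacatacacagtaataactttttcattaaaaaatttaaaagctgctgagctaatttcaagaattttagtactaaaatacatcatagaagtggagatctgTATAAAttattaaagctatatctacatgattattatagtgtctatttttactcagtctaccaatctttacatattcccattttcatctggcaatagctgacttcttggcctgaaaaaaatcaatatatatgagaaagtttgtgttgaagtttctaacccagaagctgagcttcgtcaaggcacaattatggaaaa
Sall2, downstream start: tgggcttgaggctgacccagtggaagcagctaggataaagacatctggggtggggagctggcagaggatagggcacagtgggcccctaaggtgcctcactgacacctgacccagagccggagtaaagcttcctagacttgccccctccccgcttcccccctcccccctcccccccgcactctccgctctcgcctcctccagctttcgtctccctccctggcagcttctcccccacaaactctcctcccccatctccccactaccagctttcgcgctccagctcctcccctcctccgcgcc
The Zic1 window held 3 GC boxes and 31 CpG dinucleotides at a GC content of 65.3%. At least 1 GC box was held by 35.7% of the 32851 windows of the table. The GC boxes of Zic1 began at -212, -152 and 16 bases from the annotated start, the last of them after it. The upstream Sall2 window, with 1 CpG and a GC content of 30.3%, held 1 TATA box, as did 13.6% of all windows. In that window the box began at -145 bases from the annotated start. The downstream Sall2 window had 10 CpGs, a GC content of 65.0% and neither motif. The median GC content of all windows was 52.7%. Genes that were not called also had such windows. The Zic5 window held 1 GC box and 15 CpGs at a GC content of 62.7%. The Sall1 windows held 0, 4 and 1 GC boxes and 18, 27 and 39 CpGs, at 57.3%, 70.0% and 79.7%. Neither the Zic motif CAGCAGG (in 10.5% of all windows) nor the octamer core ATGCAAA of Pou factors (in 4.63%) was present in the windows of Zic1, Zic5, Sall1 or Sall2. None of the motifs overlapped another. These matches describe letters in the windows, and no binding was measured.

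Zic1, a factor of the dorsal neural tube and the cerebellum, was dim in ES cells and spread widely among the embryoid bodies. Its chip A probe set 1423477_at read 212, 39.5 and 143 in ES replicates 1, 2 and 3 and 652, 2584 and 6324 in EB replicates 1, 2 and 3. Every EB array lay above every ES array, and EB replicate 3 lay almost an order of magnitude above EB replicate 1. The means were 132 ± 86.9 and 3187 ± 2883 (SD, n = 3 each). That ES mean lay under the chip A pseudocount of 136, as did the value of ES replicate 2. The log2 change was 3.22 ± 0.64 (SE), with a 95% interval from 1.78 to 4.66 and a limma adjusted p of 0.0198.

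The chip B probe set of Zic1, 1439627_at, read 464, 194 and 207 in the ES replicates and 515, 1304 and 2417 in the EB replicates. Again no EB array overlapped with the ES arrays, though EB replicate 1 stood only just above ES replicate 1. ES replicates 2 and 3 lay under the chip B pseudocount of 253. The log2 change was 1.48 (95% interval from 0.38 to 2.58) and did not pass the test, with a limma adjusted p of 0.0834. Both chips took the same samples, so their agreement on the order of the EB replicates, lowest in 1 and highest in 3, is a repeated measurement and not a second set of cultures. EB replicate 1 was washed on another fluidics station than the remaining arrays of chip A, and on chip B all arrays shared a station. The EB arrays of chip A were also each scanned on a day of their own, while those of chip B shared a day. The part of the station or the scan day in the Zic1 values was not tested.

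The call for Zic1 on chip A depended on single arrays. Leaving out either of ES replicates 1 and 2, or either of EB replicates 2 and 3, ended it, with limma adjusted p values from 0.0524 to 0.0760. The log2 change then ran from 2.51 without EB replicate 3 to 3.44 without ES replicate 1, and it was 4.02 without EB replicate 1, where the call held. The size also moved with the pseudocount, to 4.36 with a pseudocount of 1 and to 2.02 with the chip median, where the call was lost (limma adjusted p = 0.0521). A fluidics position was shared by ES replicate 1 with EB replicate 2, which differed by 2.96 on the log2 scale, and by ES replicate 2 with EB replicate 3, which differed by 5.20. On chip B the same-position differences were 0.10, 1.80 and 2.54 in EB replicates 1, 2 and 3.

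Zic2 divides the forebrain midline and is one of the human holoprosencephaly genes. It is also the neighbouring coding gene of Zic5 on mouse chromosome 14 in the GRCm38.p6 annotation. Its only probe set, 1421301_at on chip A, read 91.5, 423 and 475 in the ES replicates and 644, 562 and 590.2 in the EB replicates. The EB arrays all lay above the ES arrays, as 13.1% of all chip A probe sets did. ES replicate 1 stood far below the remaining arrays and under the pseudocount. The log2 change of Zic2 was 0.78 (95% interval from -0.10 to 1.66) and did not pass, with a limma adjusted p of 0.287. Without ES replicate 1 it was 0.33.

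Zic5, which takes part in neural crest and neural tube development in the mouse, did not pass on any of its 3 probe sets. Probe set 1425666_at on chip A read 590.0, 1008 and 659 in ES cells and 954, 651 and 477 in embryoid bodies. Probe set 1456140_at, also on chip A, read 683, 842 and 979 and then 1282, 828 and 884. On chip B, 1456219_at read 2628, 3036 and 5959.7 in ES cells and 6885, 3973 and 3024 in embryoid bodies. In each case the groups overlapped and EB replicate 1 was the highest EB sample. The log2 changes were -0.11, 0.21 and 0.25, with 95% intervals from -0.79 to 0.57, from -0.34 to 0.77 and from -0.53 to 1.03. Changes of up to about these bounds in either direction remain possible for Zic5, and its sign turned on leaving out single arrays on 2 of the 3 probe sets.

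Among the Sall genes, Sall2 rose. It is a family member expressed in neural tissue and the eye, and its probe set 1416638_at read 453, 49.8 and 791 in the ES replicates and 3134, 2264 and 1318 in the EB replicates. The groups did not overlap, with ES replicate 2 lowest and EB replicate 1 highest of the 6 arrays. The value of ES replicate 2 lay under the pseudocount. The means were 431 ± 371 and 2239 ± 908 (SD, n = 3 each), a log2 change of 2.27 ± 0.54 (SE, 95% interval from 1.07 to 3.47), with a limma adjusted p of 0.0380. Within shared fluidics positions, EB replicate 2 exceeded its ES partner by 2.03 on the log2 scale and EB replicate 3 exceeded its own by 2.97.

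The Sall2 call held only without ES replicate 3 when single arrays were left out. The limma adjusted p was 0.0141 there and lay between 0.0524 and 0.147 without any of the other 5 arrays. The log2 change stayed between 1.61, without ES replicate 2, and 2.77, without ES replicate 3. With a pseudocount of 1 the log2 change was 3.001 and did not pass (limma adjusted p = 0.0604), and with the chip median it was 1.45 and passed (0.0326). ES replicates 2 and 3, the lowest and highest ES arrays for Sall2, also stood apart in other genes. The summed chip A signal of 11 ES cell factors was 71054 and 88617 in ES replicates 1 and 2, 45903 in ES replicate 3, and from 29721 to 33631 in the EB arrays. The summed signal of 20 fibroblast markers was 35013 in ES replicate 2, against 55194 and 55757.5 in ES replicates 1 and 3, and 15 of the 20 had their lowest ES value in ES replicate 2. That array was also the lowest ES array for Zic1 on both chips. The part of either list in the Sall2 and Zic1 signals was not tested.

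Sall4, the member known for its role in pluripotency, showed no called change at day 5. Probe set 1424152_at read 13833.5, 14331 and 14671 in the ES replicates and 16920.1, 10949 and 11412 in the EB replicates, so that EB replicate 1 lay above and the other EB arrays below all ES arrays. Probe set 1424153_s_at, annotated from the same sequence record, read 2771, 3467 and 2280.0 and then 2647, 2362.5 and 1799, with overlapping groups. Both had EB replicate 1 as the highest EB sample. The log2 changes were -0.15 (95% interval from -0.55 to 0.25) and -0.30 (from -0.76 to 0.15), with limma adjusted p values of 0.677 and 0.427. A fall of Sall4 beyond a log2 change of -0.76 lies outside both intervals. These intervals do not cover differences of scan day or chip lot, so they set no bound on the effect of culture state.

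Sall1, a factor of kidney and limb development whose human gene is altered in Townes-Brocks syndrome, did not pass on either chip. The chip A probe set 1450489_at read 1715, 2363 and 838 in ES cells and 1145, 1034 and 1472 in embryoid bodies. On chip B, 1437983_at read 4501, 6711 and 6428 in ES cells and 9009, 4467 and 3881 in embryoid bodies. The probe sets ordered the same samples differently. ES replicate 3 was the lowest of 6 on chip A and the third highest on chip B, and EB replicate 3 was the highest EB sample on chip A and the lowest on chip B. The log2 changes were -0.30 (95% interval from -1.02 to 0.42) and -0.10 (from -0.77 to 0.57), with limma adjusted p values of 0.641 and 0.865. The sign on chip B turned on leaving out ES replicate 2, or either of EB replicates 2 and 3.

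**Figure D2:**
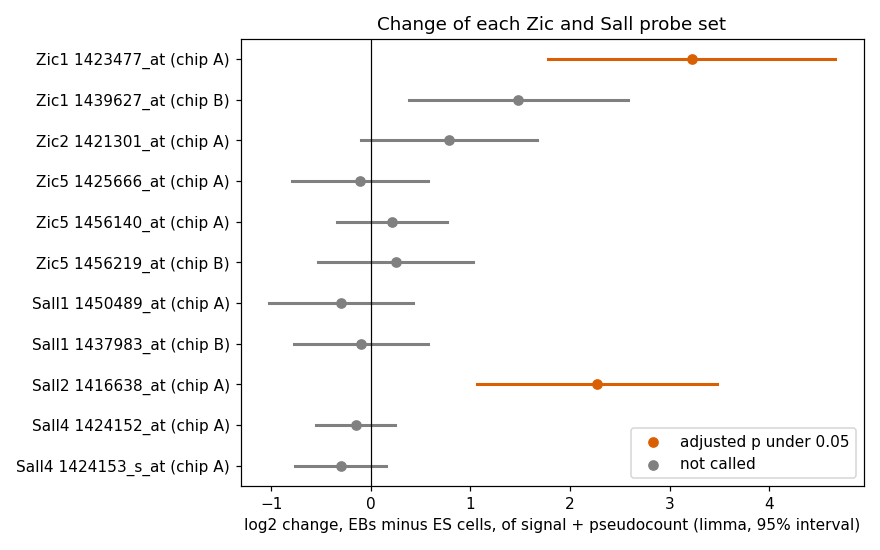
Limma log2 change (embryoid bodies minus ES cells) of each probe set, with its 95% interval, in orange where the adjusted p was under 0.05. The intervals of Zic1 and Sall2 on chip A and of Zic1 on chip B lie above 0, and the other 8 include 0.

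The embryoid body samples differed from each other in a way that set Zic1 apart from the rest of the members. EB replicate 1 was the lowest EB sample on both Zic1 probe sets and the highest on 8 of the 9 others, the exception being Sall1 on chip A. Over all probe sets, EB replicate 1 was the highest EB array for 29.7% on chip A and 31.3% on chip B, and EB replicate 3 for 34.7% and 35.1%. How often EB replicate 1 was the lowest EB array over all probe sets was not counted. Several of the 9 share a gene and all share the samples, so the contrast with Zic1 is a description with no test. Among marker lists on chip A, the summed signal of 10 primitive streak and mesoderm genes was 11809.5, 8025 and 19031 in EB replicates 1, 2 and 3, and that of 21 neural plate genes was 24983, 19965 and 24042. EB replicate 3 held the highest EB value for 8 of the 10 streak genes. The neural plate genes had no common order, with the highest EB value in replicate 1 for 10 of 21, in replicate 2 for 5 and in replicate 3 for 6. Their part in the Zic1 spread was not tested.

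**Figure D3:**
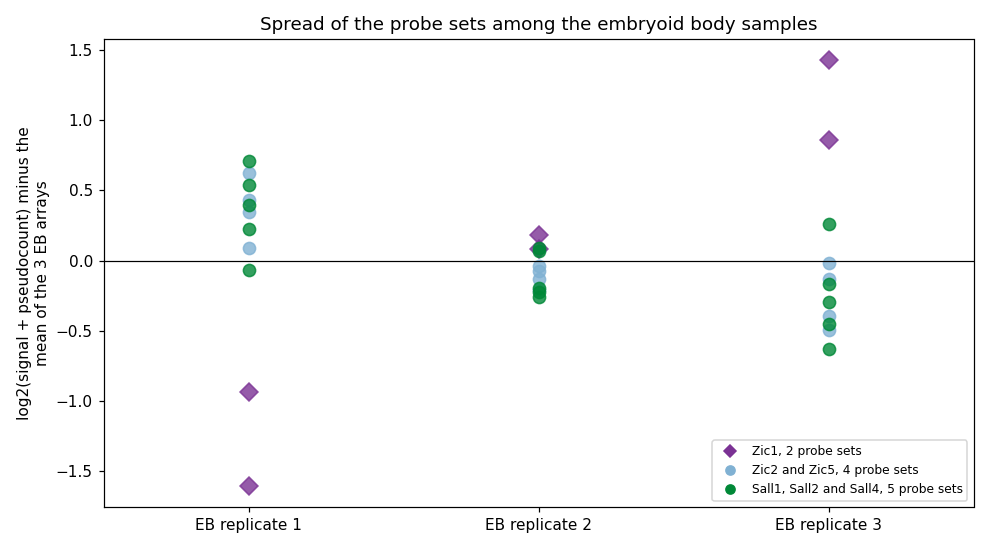
Value of each probe set in each embryoid body sample, as log2(signal + pseudocount) minus its mean over the 3 EB arrays of its chip. The Zic1 probe sets (diamonds) lie below 0 in EB replicate 1 and above 0 in EB replicate 3, and most other probe sets lie above 0 in EB replicate 1.

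Genes with profiles most like those of Zic1 and Sall2 were sought over the 6 arrays of chip A, by the root mean square distance between log2 profiles that were each centred on their own mean. Among 12392 other genes, Zic1 lay closest to Tnfrsf19, a receptor of the tumour necrosis factor family, at 0.71. Ptn, the secreted growth factor pleiotrophin, followed at 0.73 and the imprinted gene Mest at 0.79. Tnfrsf19 read 564, 315 and 720.0 in ES cells and 2105, 3419 and 4787 in embryoid bodies, with the same order of EB samples as Zic1. Sall2 lay closest to Cachd1 at 0.44, to Rbmx, which encodes an RNA-binding protein, at 0.46, and to Id2, an inhibitor of basic helix-loop-helix factors, at 0.47. Like Sall2, all of these had their lowest ES value in ES replicate 2, which read 618 for Cachd1, 293 for Rbmx and 131 for Id2. The genes were picked by distance over these same arrays, so the shared orders follow largely from the choice.

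Gli factors and Hedgehog components, whose zinc fingers or targets relate to those of the Zic family, went both ways. Of 10 measured genes, 3 rose, 1 fell and 6 did not pass, where 4.42% of all genes rose and 4.37% fell with 1 probe set per gene. Ptch1, the Hedgehog receptor and a target of the pathway, fell from 3894 ± 640 to 1354 ± 359.8 (SD, n = 3, log2 change -1.45, limma adjusted p = 0.00665). Sufu, which restrains Gli proteins, rose from 841 ± 223 to 2037 ± 368 (log2 change 1.16, limma adjusted p = 0.0198). Gli3, an effector that acts mainly as a repressor, rose from 417 ± 19.4 to 979 ± 92.3 (log2 change 1.01, limma adjusted p = 0.0383). Smo, the signal transducer of the pathway, also rose. Gli1 read 1562, 2385 and 658 in the ES replicates and 386, 464 and 420 in the EB replicates. All its EB arrays lay below its ES arrays, but its log2 change of -1.43 did not pass (limma adjusted p = 0.0598). Gli2, with a log2 change of 0.36, did not pass either. The brightest uncalled gene was Glis2, whose log2 change was -0.36 (95% interval from -0.96 to 0.24). The list median was -0.14, beside -0.06 over all genes.

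Among subunits of NuRD, the repressor complex that Sall proteins recruit, 1 of 13 measured genes rose, 1 fell and 11 did not pass, beside 4.42% and 4.37% of all genes. So small a count is near that background and is no result about the complex. The list median was 0.23. Hdac2, a histone deacetylase of the complex, rose from 1250.4 ± 347 to 2722 ± 229 (SD, n = 3, log2 change 1.07, limma adjusted p = 0.0168). Mta3, one of its alternative scaffold subunits, fell from 3908 ± 391 to 2105 ± 608 (log2 change -0.88, limma adjusted p = 0.0320). The brightest uncalled subunit was the histone-binding Rbbp7, with means of 15278 ± 1280.0 and 18597.5 ± 672.

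ES cell factors known to act with or beside Sall4 included several that fell. Of 12 measured genes, 0 rose, 7 fell and 5 did not pass, where 4.42% of all genes rose and 4.37% fell. The list median was -1.48. Klf4, Klf5 and Nr0b1, all linked to the naive ES cell state, had the largest falls, with log2 changes of -2.44, -2.25 and -2.07 and limma adjusted p values of 0.00246, 0.00136 and 0.0366. For Sox2, the brightest uncalled gene, the log2 change was -0.07 (95% interval from -0.53 to 0.40). Pou5f1 fell from 14603 ± 1880 to 7688 ± 236 (SD, n = 3, log2 change -0.91, limma adjusted p = 0.00781). Nanog, with a log2 change of -0.16, did not pass. Whether the change of Sall4 differed from that of these factors was not tested. On the same arrays, 9 of 20 fibroblast markers fell and 0 rose, with a summed signal from 35013 to 55757.5 in ES cells and from 12082 to 14549.8 in embryoid bodies. Col1a1, Pdgfrb and Mgp had EB means under the pseudocount, and no marker of the list had such an ES mean. The part of fibroblast RNA in the members' values was not tested.

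Genes of the neural plate, where Zic genes are known to act, gave 5 rises and 0 falls among 21 measured genes, with a list median of 0.45. Over all genes, 4.42% rose and 4.37% fell. Sox11, a factor of neural progenitors, rose by 2.32 on the log2 scale, Meis2, a homeobox cofactor, by 1.62 and Otx2, of the anterior neural plate, by 1.23 (limma adjusted p = 0.00331, 0.0374 and 0.0152). The ES mean of Meis2, 132, lay under the pseudocount. The brightest uncalled gene was Nes, an intermediate filament of neural progenitors, whose log2 change was -0.02. Foxd3, with a log2 change of -1.56 and all EB arrays below all ES arrays, did not pass (limma adjusted p = 0.0573). Gbx2 and Pou3f1 also had negative log2 changes, of -0.66 and -0.44, and did not pass. The summed neural plate signal ran from 13279 to 15078 in ES cells and from 19965 to 24983 in embryoid bodies. In the streak and mesoderm list, 3 of 10 genes rose and 0 fell, with sums from 4279.6 to 5635 and from 8025 to 19031. Of 8 endoderm markers 0 passed the limma test and 1 had an unadjusted limma p under 0.05, as 22% of all chip A probe sets did. Their sums ran from 3071 to 4433 in ES cells and from 3906 to 5277 in embryoid bodies. The mean of Wnt3 in the former list and of Ttr in the latter lay under the pseudocount in both groups.

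**Figure D4:**
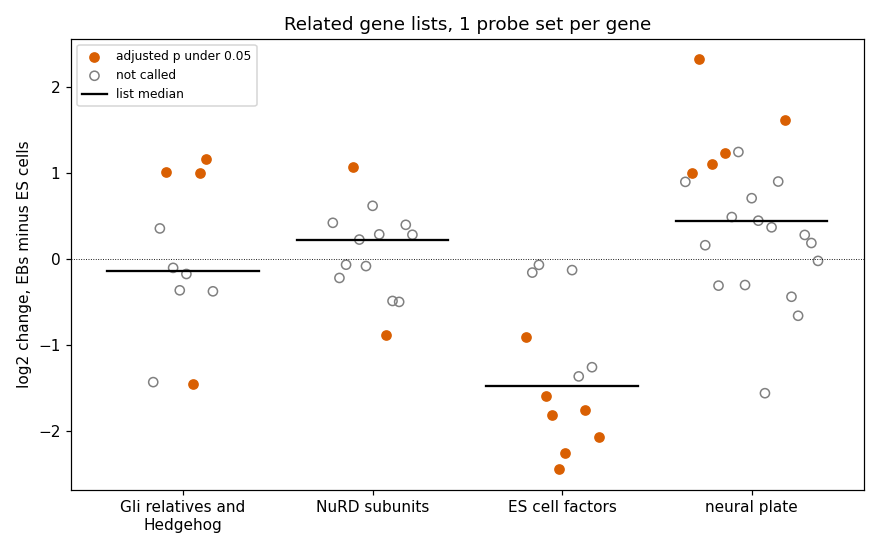
Log2 change (embryoid bodies minus ES cells) of each gene of 4 lists, 1 probe set per gene, filled where the limma adjusted p was under 0.05, with a line at the list median. The ES cell factors lie lowest with a median of -1.48, and the neural plate genes have a median of 0.45.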

How the data were processed

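Each of the 12 arrays gave a probe set intensity, computed by the authors using MAS5, as named in the submitters' processing notes (version not given in the sources used here). The deposited intensities are linear, with trimmed means between 1500.13 and 1500.6 on all arrays, so arrays had been scaled before deposit. No detection calls were used. Median signals ran from 587 to 679 on chip A and from 907 to 996 on chip B. Probe sets were named from the platform annotation, and the gene identifiers of all members matched RefSeq. The 64 control probe sets per chip were left out. Each chip was fitted on its own in limma 3.58.1 (R 4.3.3) with lmFit and eBayes with an intensity trend, on log2(intensity + the 20th percentile of the chip), with Benjamini-Hochberg adjustment over 22626 and 22511 probe sets. The procedure was tested on simulated data with independent noise for each probe set and array. Those data held no shared effect of array, scan day or chip lot, so that test cannot speak to such effects here. In lists each gene was represented by 1 probe set, with chip A preferred, IDs ending in _x_at avoided and the brightest of the rest taken. From each list the 3 called genes with the largest changes and the brightest uncalled gene are named. Smo, Gli1, Gli2, Pou5f1, Nanog, Foxd3, Gbx2 and Pou3f1 were added after their values were seen. Members and lists were chosen with earlier results of these data known. Alternatives changed the scaling, pseudocount, filter, trend, blocks, threshold and arrays.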

Additional observations from a re-analysis of the deposited data

How the results depend on the processing

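Zic1 on chip A kept its direction in all 15 alternatives and its call in 10, and Sall2 in all 15 and in 8. Zic1 on chip B kept its direction in all 14, with 0 calls. For these probe sets all EB arrays lay above all ES arrays, so another pseudocount or leaving out an array could not turn the direction. The filter, the trend and the replicate block left the log2 change as it was, and on chip B the replicate and position blocks are the same fit. The kept directions are therefore largely given in advance. Besides the arrays named above, Zic1 lost its call with the chip median as pseudocount, and Sall2 with a pseudocount of 1 and, at the same log2 change of 2.27, without the intensity trend (limma adjusted p = 0.0745). The number of member probe sets called on chip A was therefore 1 with either pseudocount and 1 without the trend, 0 at an adjusted p of 0.01, and from 0 to 2 on leaving out single arrays. On chip B it was 1 (Zic1) at an adjusted p of 0.1 and 0 on leaving out any array. Over all probe sets, the 1425 calls on chip A became 343 at 0.01, 2569 at 0.1, 844 without the trend, 2243 with scan day as a random block, and from 436 to 2091 without single arrays. The 2405 calls on chip B became 564 at 0.01, 4115 at 0.1 and from 934 to 1807 without single arrays. The replicate block gave 1136 and 2108 calls and changed no call among the members. No scan day holds both groups. On chip A the embryoid bodies span 3 days, so day was fitted as a random block, which does not separate day from culture state, and on chip B each group lies on 1 day of its own, so no such fit was made. Same-numbered samples did not deviate together (correlations from -0.07 to 0.04), and differently numbered ones gave values from -0.09 to 0.10. No pairing by number was seen, though correlations over all probe sets cannot exclude one. On chip B the numbers coincide with the fluidics position. List counts ran, over their alternatives, from 0 to 2 rises and 0 to 2 falls for NuRD, 0 to 3 and 1 to 2 for Gli relatives, 3 to 8 falls for the ES cell factors, 1 to 7 rises with 0 to 1 falls for the neural plate, 5 to 11 falls for fibroblast markers and 1 to 5 rises for the streak list. The fibroblast count was lowest, at 5, without ES replicate 1, and the streak count, at 1, without EB replicate 1 or EB replicate 3. The neural plate rises were 1 without ES replicate 1, the ES cell factor falls were 3 on leaving out any single array other than ES replicate 3, and Gli relatives rises were 0 without EB replicate 1 or EB replicate 3. No NuRD gene was called without ES replicate 1, EB replicate 1 or EB replicate 3. Fits without 1 array hold fewer samples, and the cause of the other differences was not tested.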
